A study of Rattus norvegicus with 6 samples.

Results

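Reads with a single base added at the 3′ end of 50 abundant small RNA tags of rat liver were counted and set against the reads of the tag without that base, where a tag is a distinct read sequence. The 50 parents were the tags of 20 to 24 nt with the highest mean TPM, the reads of a tag scaled to the clean reads of its library, over 6 libraries. Tags that share the first 18 bases of the most abundant tag were left out, and of tags with the same first 18 bases the most abundant was kept. Each parent plus A, C, G or T gives 200 possible members, of which 189 had at least 1 read among the 1528721 different tags of the series. The parents were thus chosen by their mean TPM. An added-base tag of up to 24 nt shares the first 18 bases of its parent. Its reads had a part in that choice, since only the most abundant of such tags was kept. A parent of under 24 nt therefore has a higher mean TPM than each of its added-base tags, which limits the percent of parent. The most abundant parent had 69073.5 TPM, the last parent kept had 187 TPM and the first tag left out had 185 TPM.

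The libraries came from the liver of male Wistar rats, 3 with nonalcoholic fatty liver disease (NAFLD) and 3 normal, with 1 library per rat. The NAFLD rats had been fasted and then given a high-starch diet, and the normal rats a standard diet. The NAFLD livers were picked for a high content of triglycerides and the normal livers without such a choice, so that the groups stand for a short diet model and not for the range of the disease. The labels give an age of 4 months for all rats, whereas the study's text gives another age. Each library held 11601058 to 11880695 clean reads, and the most abundant tag was a form of rno-miR-122-5p, the microRNA that marks hepatocytes. NAFLD 2, NAFLD 3 and normal 2 stood apart from the other libraries by base substitutions. At read position 4, a median of 1.30% to 1.56% of the reads of 146 abundant tags carried a substitution in these libraries, against 0.0381% to 0.0452% in NAFLD 1, normal 1 and normal 3, while at position 19 the range over all 6 libraries was 0.0442% to 0.0534%. Of the 50 parents, 11 differ at 1 or 2 positions from another tag with at least 5 times their mean TPM. Of these variants, 4 have a substitution at position 4 and 7 only at other positions. They had 0 to 549 reads in NAFLD 1, normal 1 and normal 3 and 2239 to 32451 reads in the other 3 libraries, and values over all parents are given with and without them.

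MicroRNAs are short RNAs that pair with messenger RNAs through a seed near their 5′ end and lower the output of those messages. They are cut by Drosha and Dicer from a hairpin, and since the cut can fall a base earlier or later, a longer read can carry a base that the hairpin itself encodes. Terminal nucleotidyl transferases can also add bases, mostly U and A, to the 3′ end of a finished microRNA. U is read as T in these libraries. Here an added base is called encoded where it matches the base that follows the parent in a hairpin of the RefSeq table, and not encoded where it does not. An encoded base may still have been added after cutting, and these reads cannot tell the cases apart. A base called not encoded could be encoded by a gene copy that is not in the table.

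The parents were matched by sequence to 419 rat hairpins and 724 mature microRNAs of RefSeq, build GRCr8. A microRNA name was found for 25 parents with 24 different names. Of these, 21 lay whole within a hairpin, 2 matched a hairpin up to the base before the last, and 2 matched a mature sequence for which no hairpin was used here. The remaining 14 parents that are no substitution variants gave no match and are called by their sequence. No match to this set does not mean that a parent is no microRNA. The lines below give the parents that lay whole within a hairpin in lower case, followed in capitals by the next bases of the hairpin, of which the first is the encoded addition. They show what each added base has to be compared with. The coordinates are those of the hairpin on GRCr8, with the strand in brackets.
let-7f-5p, hairpin Mirlet7f-1os at chr17:16320501-16320589 (+): tgaggtagtagattgtatagttGTG
let-7f-5p, hairpin Mirlet7f2 at chrX:24460045-24460127 (+): tgaggtagtagattgtatagttTTA
let-7a-5p, hairpin Mirlet7a1 at chr17:16320133-16320226 (+): tgaggtagtaggttgtatagttTTA
let-7a-5p, hairpin Mirlet7a-2 at chr8:50805203-50805298 (+): tgaggtagtaggttgtatagttTAG
let-7g-5p, hairpin Mirlet7g at chr8:115701020-115701107 (+): tgaggtagtagtttgtacagttTGA
let-7d-5p, hairpin Mirlet7d at chr17:16322260-16322357 (+): agaggtagtaggttgcatagttTTA
let-7e-5p, hairpin Mirlet7e at chr1:67350229-67350321 (+): tgaggtaggaggttgtatagttGAG
miR-192-5p, hairpin Mir192 at chr1:212994209-212994318 (+): ctgacctatgaattgacagccaGTA
miR-192-5p without its first base, hairpin Mir192 at chr1:212994209-212994318 (+): tgacctatgaattgacagccagtACT
miR-26a-5p, hairpin Mir26a at chr8:127633048-127633137 (+): ttcaagtaatccaggataggctGTG
miR-26b-5p, hairpin Mir26b at chr9:83425709-83425793 (+): ttcaagtaattcaggataggttGTG
miR-101b-3p, hairpin Mir101-2 at chr1:236273922-236274018 (+): tacagtactgtgatagctgaagAAT
miR-194-5p, hairpin Mir194-2 at chr1:212994024-212994108 (+): tgtaacagcaactccatgtggaaGTG
miR-29a-3p, hairpin Mir29a at chr4:60617955-60618042 (-): tagcaccatctgaaatcggttaTAA
miR-423-5p, hairpin Mir423 at chr10:62412272-62412350 (-): tgaggggcagagagcgagactttTCT
miR-191a-5p, hairpin Mir191 at chr8:118142627-118142717 (+): caacggaatcccaaaagcagctgtTGT
miR-21-5p, hairpin Mir21 at chr10:71902600-71902691 (-): tagcttatcagactgatgttgaCTG
miR-10a-5p, hairpin Mir10a at chr10:81779709-81779818 (+): taccctgtagatccgaatttgtGTA
miR-103-3p, hairpin Mir103a1 at chr10:20748474-20748559 (+): agcagcattgtacagggctatGAA
miR-103-3p, hairpin Mir103a2 at chr3:138963227-138963312 (+): agcagcattgtacagggctatGAA
miR-107-3p, hairpin Mir107 at chr1:241750418-241750504 (-): agcagcattgtacagggctatCAA
miR-140-3p, hairpin Mir140 at chr19:52375293-52375391 (+): taccacagggtagaaccacggacAGG
miR-140-3p without its first base, hairpin Mir140 at chr19:52375293-52375391 (+): accacagggtagaaccacggaCAG
miR-132-3p, hairpin Mir132 at chr10:60522033-60522133 (+): taacagtctacagccatggtcgCCC
miR-25-3p, hairpin Mir25 at chr12:22156641-22156724 (-): cattgcacttgtctcggtctgaCAG

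In the parents of let-7i-5p and miR-24-3p, the last base was itself not the base of the hairpin. Their lines give the part that the hairpin holds in lower case and the bases that follow it in the hairpin in capitals, whereas the parent ended in T at that place.
let-7i-5p, hairpin Mirlet7i at chr7:60527877-60527961 (-): tgaggtagtagtttgtgctgttGGT
miR-24-3p, hairpin Mir24-1 at chr17:1818669-1818736 (-): tggctcagttcagcaggaacagGAG
miR-24-3p, hairpin Mir24-2 at chr19:40859455-40859562 (-): tggctcagttcagcaggaacagGAG

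The mature sequences show which parents share a seed, the bases 2 to 8 given in capitals. By their own bases 2 to 8 the 25 named parents had 18 different seeds, and 2 of these were shared. GAGGUAG is the seed of 7 let-7 parents and UCAAGUA that of both miR-26 parents. MiR-192-5p and miR-140-3p were each present with the first base and, in another parent, without it, which moves bases 2 to 8 along by 1.
let-7a-5p: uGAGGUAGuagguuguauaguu
let-7b-5p: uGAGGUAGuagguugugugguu
let-7d-5p: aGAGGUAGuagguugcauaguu
let-7e-5p: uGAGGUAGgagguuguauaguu
let-7f-5p: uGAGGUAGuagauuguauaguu
let-7g-5p: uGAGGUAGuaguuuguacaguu
let-7i-5p: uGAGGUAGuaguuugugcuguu
miR-26a-5p: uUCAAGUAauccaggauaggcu
miR-26b-5p: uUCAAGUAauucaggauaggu
miR-103-3p: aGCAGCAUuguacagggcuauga
miR-107-3p: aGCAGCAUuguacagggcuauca
miR-192-5p: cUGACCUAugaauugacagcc
miR-140-3p: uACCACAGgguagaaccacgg
miR-21-5p: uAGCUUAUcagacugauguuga
miR-10a-5p: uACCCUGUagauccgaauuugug
miR-101b-3p: uACAGUACugugauagcugaa
miR-194-5p: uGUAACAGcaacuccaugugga
miR-29a-3p: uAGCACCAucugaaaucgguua
miR-24-3p: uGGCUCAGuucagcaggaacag
miR-378a-3p: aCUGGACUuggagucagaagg

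Added T and added A were read on every parent and were the common additions. All 50 parents had reads with A and with T, against 43 with C and 46 with G. At least 10 reads in every library were reached by 35 members with T, 28 with A, 19 with G and 12 with C. The 11 members without any read were of C or G, and at their depth 3 reads would be 0.0066% to 0.0209% of the parent. Among them was the encoded C of miR-132-3p and of miR-25-3p, microRNAs whose hairpins continue with C.

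Among the 21 parents within a hairpin, T was the most frequent added base in 17, G in 2, A in 1 and C in 1. The most frequent base was the encoded one in 11 of the 21. In all 4 parents led by A, C or G that base was encoded, and of the 17 led by T it was encoded in 7. When the encoded bases were set aside, T led in 12 parents and A in 9, and C and G led in 0. In 11 parents neither A nor T was encoded, and T was above A in 9 of them. The exceptions were miR-21-5p and miR-10a-5p. Over 18 members with A that was not encoded, the median was 7.33% of the parent, and over 14 such members with T it was 23.98%. C that was not encoded had a median of 0.0547% over 16 members and stayed under 1% in all 16. G had a median of 0.0977% over 13 members and was under 1% in 12 of them, the exception being the miR-140-3p parent without its first base at 1.55%. The substitution rate at position 19 was 0.0442% to 0.0534% of a tag's reads for all wrong bases together. A misread added base would be a share of the reads with another added base, and not of the parent. The rate is therefore not on the scale of these values. The part of substitutions in the C and G values was not tested. The encoded bases ranged widely, with medians of 14.7% over 3 members with A, 22.8% over 5 with C, 1.48% over 8 with G and 20.2% over 7 with T.

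In all 7 let-7 parents the added T and A were above C and G. Let-7 microRNAs are abundant in differentiated tissue, where they hold back growth genes. Their added A, encoded in no hairpin used here, had a median of 9.67% over the 7 parents and ran from 0.917% for let-7i-5p to 12.7% for let-7a-5p. Their added C had a median of 0.0485%. For let-7f-5p, the most abundant parent, added A was 10.5%, 10.4% and 11.32% of the parent in NAFLD 1, 2 and 3 and 11.35%, 12.1% and 11.7% in normal 1, 2 and 3. The counting error of such a value is small, with a 95% Wilson interval of 10.46% to 10.60% for NAFLD 1. Amplified reads are not independent molecules, so these intervals and the limits for members without reads cover counting error only.

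Added T on let-7 parents ranged from 8.91% for let-7i-5p to 44.2% for let-7d-5p. For let-7d-5p, where T is encoded, it was 38.5%, 41.5% and 48.7% in NAFLD 1, 2 and 3 and 48.5%, 47.0% and 41.2% in normal 1, 2 and 3. For let-7e-5p, whose hairpin continues with G, it was 27.8%, 25.6% and 30.2% in NAFLD and 30.6%, 29.7% and 26.7% in normal libraries. The groups overlapped in both, and the T that is not encoded on let-7e-5p was above the encoded T of let-7g-5p, 12.3%, in the mean over the 6 libraries. Added G separated the hairpins further. It was 8.11%, 7.62% and 8.57% in NAFLD and 8.53%, 8.19% and 8.55% in normal libraries for let-7e-5p, where G is encoded. For let-7a-5p, let-7d-5p and let-7g-5p, where it is not, the means were 0.371%, 0.381% and 0.383%. Let-7f-5p lies in 1 hairpin that continues with G and another that continues with T, and its added G was 0.397% in the mean against 20.2% for T.

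In let-7i-5p and miR-24-3p, the most abundant form of each microRNA in these libraries already carried a T that its hairpin does not hold. The let-7i-5p form with this T had 116%, 114% and 121% of the reads of the form without it in NAFLD 1, 2 and 3, and 113%, 119.8% and 119.6% in normal 1, 2 and 3. For miR-24-3p the corresponding values were 319%, 289.8% and 296% in NAFLD and 289%, 277% and 272% in normal libraries. Both microRNAs thus had more reads with the T than without it in all 6 libraries. The rule kept the most abundant form as the parent. A higher mean TPM with the T than without it was therefore set by that choice, here and for let-7b-5p. The let-7b-5p parent likewise ended 1 base past the mature sequence, with a T, and had 112% to 126% of the reads of the form without it, but no hairpin was used for it. A further T followed on the let-7i-5p parent at 8.91%, on the let-7b-5p parent at 32.5% and on the miR-24-3p parent at 22.9% in the mean over the 6 libraries.

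Of all members, added T on miR-192-5p reached the highest mean percent among those with T, although the hairpin of this liver, kidney and gut microRNA continues with G. It was 54.8%, 57.9% and 59.5% of the parent in NAFLD 1, 2 and 3 and 63.8%, 73.5% and 60.8% in normal 1, 2 and 3. The NAFLD values all lay below the normal ones, with normal 2 the highest. The encoded G was 2.42% and the added A, not encoded, 8.30% in the mean over the 6 libraries. The parent without the first base ended later on the same hairpin, where A comes next. It carried A at 11.5% and T, not encoded there, at 16.2%. Hence the same microRNA had T above the encoded base at both of its 3′ ends. Mir194-2 lies on the same chromosome near Mir192, and on miR-194-5p T was 33.5% and A 28.2% in the mean, against 0.534% for the encoded G.

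Both miR-26 parents also had T and A well above the encoded G. MiR-26 microRNAs restrain growth and are held at a high level in normal liver. On miR-26b-5p, T was 38.4%, 39.9% and 48.2% in NAFLD and 43.5%, 45.8% and 38.7% in normal libraries, and the encoded G was 0.449% in the mean. On miR-26a-5p, T was 27.6%, 27.9% and 24.5% in NAFLD and 29.1%, 28.8% and 23.1% in normal libraries, with G at 0.376%. The groups overlapped for both. On miR-101b-3p, whose hairpin continues with A, T was 36.6%, 41.9% and 46.0% in NAFLD and 36.1%, 39.3% and 36.2% in normal libraries. The encoded A stood at 14.7% in the mean, below the T that is not encoded.

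MiR-21-5p and miR-10a-5p went the other way and carried mostly the encoded base. MiR-21 is raised in many injured or growing tissues, and miR-10a lies within a Hox gene cluster. On miR-21-5p the encoded C was 31.0%, 27.9% and 31.7% in NAFLD 1, 2 and 3 and 29.2%, 40.3% and 34.4% in normal 1, 2 and 3, the third highest mean among all members with C. T was 0.346% in the mean. Added A was 0.938%, 1.01% and 1.05% in NAFLD and 1.19%, 1.11% and 1.22% in normal libraries, with no overlap. On miR-10a-5p the encoded G was 17.1%, 19.5% and 19.02% in NAFLD and 12.2%, 19.4% and 13.1% in normal libraries, with normal 1 and 3 below the rest, and T was 0.543% in the mean. Added bases were rarest on miR-132-3p, with 1 read of A and 5 reads of T over the 22873 reads of the parent in all libraries. The tag 1 base shorter than this parent also had 0 reads in every library, and the reads of the parent ran from 533 to 12047. MiR-25-3p had 1.09% A and 1.81% T and no read of its encoded C. All added bases together were under 5% of the parent in these 2 microRNAs alone of the 21, and above 50% in 7.

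The parent of miR-103-3p and miR-107-3p is shared by both microRNAs, and the added base tells their hairpins apart. Both belong to a family tied to lipid and glucose metabolism. G follows in Mir103a1 and Mir103a2 and C follows in Mir107. G was 26.5%, 27.0% and 30.1% in NAFLD and 29.4%, 35.1% and 32.9% in normal libraries. C was 26.7%, 23.8% and 20.1% in NAFLD and 22.4%, 19.4% and 24.1% in normal libraries. The groups overlapped for G and for C. The bases encoded in neither hairpin did not overlap, with A at 5.16%, 5.18% and 5.88% in NAFLD against 6.43%, 6.24% and 7.10% in normal libraries, and T at 19.9%, 20.7% and 20.3% against 22.2%, 22.2% and 21.5%.

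MiR-140-3p was present as parents with and without its first base, and both carried bases that the hairpin does not encode. It is best known from cartilage. On the parent without the first base, A was 29.1%, 31.03% and 31.06% in NAFLD 1, 2 and 3 and 33.9%, 38.8% and 37.1% in normal 1, 2 and 3. T was 42.1%, 49.5% and 50.5% in NAFLD and 50.7%, 55.1% and 51.0% in normal libraries. The encoded C was 33.1%, 38.0% and 37.4% in NAFLD and 37.5%, 40.7% and 41.7% in normal libraries, the highest mean among all members with C. A and T had every NAFLD library below every normal one, and C overlapped. On the parent with the first base, the encoded A was 36.2%, 36.7% and 33.7% in NAFLD and 6.24%, 36.5% and 13.5% in normal libraries, and T was 8.77%, 9.86% and 9.38% in NAFLD and 2.48%, 9.34% and 3.71% in normal libraries. Here normal 1 and normal 3 were low and normal 2 lay within the range of the NAFLD libraries. MiR-378a-3p, a microRNA encoded within the Ppargc1b gene and matched to a mature sequence, carried A and T in nearly equal measure. A was 46.4%, 45.4% and 43.7% in NAFLD and 44.1%, 70.5% and 55.1% in normal libraries, and T was 48.0%, 51.9% and 48.7% in NAFLD and 42.0%, 66.8% and 46.8% in normal libraries.

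Among the 14 parents without a match, the most frequent added base was G in 6, T in 5, A in 2 and C in 1. The members named here by the highest mean percent for a base or the smallest p of a direction are given with the added base in capitals.
highest percent with A: gcccggatagctcagtcggtA
high percent with A: aaaagctgggttgagagggcgaA
high percent with T: aaaagctgggttgagagggcgaT
high percent with C and smallest p, higher in NAFLD: ggggatgtagctcagtggtagagC
highest percent with G: ggcggcgactctggacgcgagccG
high percent with G and small p, higher in NAFLD: gcggcgactctggacgcgagccG
small p, higher in NAFLD: gggcgcgcgccgcggctggacgagG
smallest p, lower in NAFLD: cgcgacctcagatcagacgtgT
small p, lower in NAFLD: acgcctgtctgagcgtcgctT

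Among the 184 members whose parent was read in all libraries, only gcccggatagctcagtcggtA exceeded its parent in the mean percent over the 6 libraries. It stood at 78.1%, 155% and 117% in NAFLD and 111%, 171% and 68.8% in normal libraries. In reads over all libraries it had 19811 against 19930 of the parent. The choice of the most abundant form as parent makes members above their parent rare. The percent spread widely within both groups, so that the parent is the shorter and not always the more frequent form. The parent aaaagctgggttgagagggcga carried A at 51.8%, 52.9% and 59.3% in NAFLD and 53.8%, 53.2% and 50.6% in normal libraries, and T at 47.2%, 44.7% and 46.4% in NAFLD and 46.8%, 48.6% and 44.0% in normal libraries. Its added C and G were 0.259% and 0.567% in the mean. In this parent the bases A and T stood far above C and G in all 6 libraries.

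Parents that differ only by a base at their 5′ end share their 3′ end, and their added bases can be set side by side. Added G was 45.9%, 67.7% and 45.5% in NAFLD and 40.8%, 45.5% and 34.9% in normal libraries for ggcggcgactctggacgcgagcc. For gcggcgactctggacgcgagcc, which lacks the first base, it was 40.1%, 57.0% and 43.0% in NAFLD and 13.2%, 39.6% and 29.1% in normal libraries, with the lowest NAFLD value just above normal 2 and normal 1 well below. Added T on acgcctgtctgagcgtcgct was 3.82%, 4.95% and 13.4% in NAFLD and 11.8%, 40.1% and 19.1% in normal libraries. On tacgcctgtctgagcgtcgct, which has a further base at its 5′ end, it was 0.838%, 1.17% and 0.841% in NAFLD and 1.15%, 1.11% and 0.818% in normal libraries. The percent thus spread more than 10-fold between libraries on the shorter parent and little on the longer. The reads of the shorter parent varied with it, at 12898, 6318 and 1557 in NAFLD and 4352, 439 and 775 in normal libraries, while the reads with T ran from 148 to 515.

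The percent with T on the substitution variants was close to that of their source tags, less so for the rare bases. Over the 11 variants and the 3 libraries in which they have many reads, the percent with T differed from that of the source tag by a median of 0.224 percentage points, or 2.49% of its value, and the percent with A by 0.0653 points, or 6.35%. The percents with C and G, which are low, differed by 24.04% and 20.6% of their value, or 0.00811 and 0.0305 points. The variant ctgacctctgaattgacagcca of miR-192-5p had T at 56.2%, 58.4% and 73.6% in NAFLD 2, NAFLD 3 and normal 2, against 57.9%, 59.5% and 73.5% in the source. A variant shares its 3′ end with its source tag, and the pair is no independent measurement of the added bases. In NAFLD 1, normal 1 and normal 3 the percents of variants rest on few reads, and 4 parents, all of them variants, had no read in at least 1 library.

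The median percents with an added base differed by the last base of the parent, with wide ranges. Over the 39 parents that are no substitution variants, the 19 that end in T had a median of 20.2% with T and 6.36% with A, and the 8 that end in A had 18.7% and 5.27%. The 7 that end in G had 0.632% with T and 0.0215% with A but 4.70% with G. The 5 that end in C had 5.82% with T and 0.227% with A. The ranges overlapped, with T at 0.183% to 44.2% on parents that end in T and 0.0199% to 39.4% on those that end in G. Encoded bases, bases that are not encoded and bases of unknown kind were pooled in these medians. Most parents that end in G or C had no microRNA match, so the last base and the kind of RNA cannot be told apart here.

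The medians over the parents did not separate NAFLD from normal livers. In bulk tissue, fewer cells of a type and less RNA per cell cannot be told apart, and a ratio to the parent is taken within each library. Over the 50 parents the median with A was 4.63% ± 1.58 (SD, n = 3) in NAFLD and 3.12% ± 2.30 (SD, n = 3) in normal libraries (two-sided exact permutation test, p = 0.3). With T it was 9.11% ± 2.50 and 8.77% ± 2.30 (SD, n = 3 each, exact permutation p = 1). With C it was 0.0349% ± 0.0129 and 0.0305% ± 0.0156 (exact permutation p = 0.7), and with G 0.284% ± 0.111 and 0.265% ± 0.147 (exact permutation p = 0.9). With 3 libraries on each side the exact test cannot give a p below 0.1. Each of these differences was within the spread between libraries. The medians with A were 5.004%, 5.997% and 5.77% in NAFLD 2, NAFLD 3 and normal 2, and 2.90%, 1.83% and 1.74% in NAFLD 1, normal 1 and normal 3, so that they followed the substitution rate. Within the libraries of low rate the NAFLD value was higher by 1.12 percentage points for A and lower for T, with a difference of -1.15 points, and within those of high rate the differences were -0.272 and -0.857 points. These contrasts have 1 library on a side and allow no test. Without the 11 variants the median with A was 5.49% ± 0.546 in NAFLD and 5.59% ± 0.589 in normal libraries, and with T 10.46% ± 2.06 and 10.43% ± 2.12 (SD, n = 3 each). Summed over all parents, so that the abundant let-7 tags weigh most, reads with A were 9.92% ± 0.538 of the parents' reads in NAFLD and 10.8% ± 0.0783 in normal libraries, with no overlap (two-sided exact permutation test, p = 0.1).

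Restricted to parents within a hairpin and to bases that are not encoded, the medians spread less between libraries of a group than over all parents. This restriction also leaves out the substitution variants. For A the SD was 0.507 in NAFLD and 0.909 in normal libraries, against 0.546 and 0.589 when only the variants were left out. For T it was 0.661 and 1.90, against 2.06 and 2.12. The spread of A in normal libraries was thus larger than without the variants alone. A was 6.70%, 7.03% and 7.69% in NAFLD 1, 2 and 3 and 7.30%, 8.94% and 7.43% in normal 1, 2 and 3 (exact permutation p = 0.3). T was 23.7%, 23.2% and 22.4% in NAFLD and 25.6%, 25.5% and 22.3% in normal libraries (exact permutation p = 0.4). For both bases the NAFLD mean was the lower, at 7.14% against 7.89% and 23.1% against 24.4%, and the groups overlapped.

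Each added-base tag was then tested against the reads of its parent with edgeR's quasi-likelihood test and Benjamini-Hochberg adjustment, over all parents of the series with at least 100 reads in every library, which gave 483 pairs. Of the 200 members, 113 came from such a parent and passed the filter on low counts, 33 with A, 14 with C, 27 with G and 39 with T. They came from 41 of the 50 parents, and what follows holds for these 113. At an adjusted p under 0.05, 0 of the 113 members and 0 of the 483 pairs (0%) were called by edgeR, and DESeq2 and limma also gave 0 members. Adjusted p-values of members began at 0.676 by edgeR. At an unadjusted p under 0.05, 2 of 113 members were higher in NAFLD, against 3.52% of all pairs, and 4 were lower, against 2.48%. The median log2 difference of the members was -0.03, with -0.06 for A, -0.20 for C, -0.04 for G and 0.04 for T. Over all pairs it was 0.00, with -0.06 for A, -0.06 for C, 0.02 for G and 0.04 for T.

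Complete separation of the groups was seen for 11 members. The lowest NAFLD library lay above the highest normal library in 2 of 113 members (1.77%), against 6.21% of all pairs tested, and the reverse held in 9 of 113 (7.96%), against 6.63%. The share of lower members was near the background and that of higher members was under it, and the members in question were chosen after their values were seen. The 9 lower members were A on let-7f-5p, miR-21-5p, miR-103/107 and the shortened miR-140-3p, T on miR-192-5p, miR-103/107 and the shortened miR-140-3p, and C and G on let-7g-5p. C on let-7g-5p rested on 12 to 19 reads per library, with 0.0301% in NAFLD 1 just under 0.0307% in normal 2. In none of the 9 was the base encoded, while 21 of the 113 members tested had a base known to be encoded. For members of parents without a hairpin it was unknown whether the base is encoded. Encoded bases were not counted over all pairs, so a link between this trait and the direction was not tested. Several of the 9 share a parent. The log2 difference was -0.13 (SE 0.08) for let-7f-5p with A and -0.20 (SE 0.10) for miR-192-5p with T. For let-7g-5p with G, at 0.283%, 0.336% and 0.377% in NAFLD and 0.412%, 0.452% and 0.437% in normal libraries, it was -0.38 (SE 0.15). The 2 higher members were gcggcgactctggacgcgagccG and T on a substitution variant of miR-122-5p that rests on 2 to 7 reads in 3 libraries. By sign alone, the log2 difference was below 0 for 14 of 17 members with A that is not encoded, 6 of 7 with C, 5 of 8 with G and 6 of 13 with T, and for 12 of 21 members with an encoded base. Among all members tested, the log2 difference was below 0 for 22 of 33 with A, 10 of 14 with C, 14 of 27 with G and 18 of 39 with T. Signs were not counted over all pairs, whose median was -0.06 for A and for C, 0.02 for G and 0.04 for T. Members of the same parent or family are not independent.

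The members with the smallest p in each direction had the following values. For ggggatgtagctcagtggtagagC the percent of the parent was 46.8%, 48.3% and 38.1% in NAFLD 1, 2 and 3 and 10.1%, 38.2% and 17.3% in normal 1, 2 and 3, a log2 difference of 1.07 (SE 0.41, unadjusted p = 0.0324 in edgeR's fit). For gggcgcgcgccgcggctggacgagG it was 5.29%, 8.53% and 6.77% in NAFLD and 2.88%, 5.88% and 2.45% in normal libraries, a log2 difference of 0.81 (SE 0.34). The log2 difference of gcggcgactctggacgcgagccG was 0.77 (SE 0.35). In these 3 members normal 1 and normal 3 were the lowest libraries and normal 2 lay within or next to the NAFLD range. Normal 1 and normal 3 were the lowest in 24 of the 113 members tested (21.2%), beside 19.3% of all 483 pairs, those of the miR-140-3p parent with its first base among them. In the other direction, cgcgacctcagatcagacgtgT was 0.451%, 0.280% and 0.309% in NAFLD and 0.421%, 0.690% and 0.773% in normal libraries, a log2 difference of -0.83 (SE 0.28, unadjusted p = 0.0169 in edgeR's fit). For acgcctgtctgagcgtcgctT the log2 difference was -1.69 (SE 0.58) and for the shortened miR-140-3p with A -0.27 (SE 0.10, unadjusted p = 0.0296 in edgeR's fit). All 6 stood at an adjusted p of 0.676 by edgeR after Benjamini-Hochberg adjustment. Leaving out normal 2 brought 4 members past an adjusted p of 0.05 in edgeR, all higher in NAFLD, which is 4 of 117 members beside 10 of 500 pairs (2%). They were ggggatgtagctcagtggtagagC, gggcgcgcgccgcggctggacgagG and both A and T on miR-140-3p with its first base. Without the filter on low counts edgeR called 7 of 161 members, beside 26 of 1195 pairs (2.18%). The 7 included acgcctgtctgagcgtcgctT and ggggatgtagctcagtggtagagC, which also passed the filter. For acgcctgtctgagcgtcgctT, at 148 to 515 reads, the log2 difference was -1.69 in both fits. Its adjusted p by edgeR was 0.676 with the filter and 1.13e-15 without it. The calls thus depended on the filter, and the cause was not tested.

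As a level per total clean reads, 130 members entered edgeR's fit to 19492 tags, and 0 of 130 members and 0 of 19492 tags (0%) had an adjusted p under 0.05. The smallest adjusted p of a member was 0.499 in edgeR's fit. DESeq2, which used its own scaling of the libraries and not the total clean reads, also gave 0 members, beside 19 of 19492 tags. At an unadjusted p under 0.05, 1 member was higher, against 9.48% of all tags, and 0 members were lower, against 0.0308%. The higher member was ggggatgtagctcagtggtagagC, with a log2 difference in level of 1.84 (SE 0.60). The median log2 difference in level was 0.25 for the members and 0.90 for all tags tested.

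The most abundant tag, left out by the rule, gives a comparison from the microRNA that dominates liver. The 22-nt form of rno-miR-122-5p had A, not encoded, at 40.3%, 43.0% and 47.9% of its reads in NAFLD 1, 2 and 3 and 41.2%, 46.1% and 39.7% in normal 1, 2 and 3. The encoded T was 118%, 130% and 138% in NAFLD and 110%, 123% and 111% in normal libraries, so that the 23-nt form was the more frequent. On the 23-nt form, T that is not encoded was 3.64%, 4.02% and 4.91% in NAFLD and 3.99%, 4.10% and 3.26% in normal libraries, while the encoded G was 0.0225% to 0.0311%. The groups overlapped for each of these. C and G on the 22-nt form were at most 0.271% of it in any library and thus far below A.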

How the data were processed

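Small RNA of liver was sequenced from 3 NAFLD and 3 normal Wistar rats, 1 library per rat. The authors gel-purified the RNA, ligated adaptors to both ends, amplified and sequenced it. Reads of low quality, with 5′ primer, without an insert or 3′ primer, with poly A or too short were removed by the authors, who deposited a raw count for each tag that was left, with no genome filter. The counts of each library sum to the clean reads of its deposited log. The aligner and the builds in the submitters' notes (rn5, Rnor_5.0) have no part in these counts.

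TPM scales each count to the clean reads of its library, as in the paper. The members and lists were chosen with earlier results of these data known. The reads of each parent plus 1 base were given as percent of the reads of the parent, with 95% Wilson intervals for counting error. For members without a read, 3 reads over all libraries were set as the limit. Library medians were compared by two-sided exact permutation tests. For ratios, edgeR 4.0.16 (R 4.3.3, glmQLFit, glmQLFTest and filterByExpr) was run with the log of the parent's reads as offset over parents that reached 100 reads in each library, and levels with library size equal to total clean reads over tags with at least 15 reads in all, both with Benjamini-Hochberg adjustment at 0.05. Standard errors were derived from the log2 difference and the F statistic of its test. DESeq2 1.42.0 and limma 3.58.1, the latter on log2 of the percent with 0.5 reads added, were alternatives, as were TMM factors, other filters, 30 or 100 parents, a replicate block and leaving out each library. The fits were tested on simulated data. Summaries were made with scipy 1.17.1, numpy 2.4.6 and pandas 2.3.3 under Python 3.11.15. Named members are, for each base, the 4 with the highest mean percent, those called in a direction or otherwise the 3 of smallest p there, and the added-base forms of the most abundant tag. Others are named beside counts and were chosen after their values were seen. Substitution variants differ at up to 2 positions from a tag with 5 or more times their mean TPM. Without a genome, the encoded base was known only for parents within a RefSeq hairpin (GRCr8). The authors' genome match, annotation and targets were not analysed here.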

Additional observations from a re-analysis of the deposited data

How the results depend on the processing

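Differences between NAFLD and normal in the median percent are given in percentage points, from a base value of 1.52 for A, 0.00437 for C, 0.0196 for G, 0.342 for T and 7.43 for any base, and none of these directions held under all alternatives. With reads summed over parents they were -0.903 for A, -0.0287 for C, -0.448 for T and -1.24 for any base. With 30 parents they were -0.0195 for C, -0.0253 for G and -1.28 for T, and with 100 parents -0.00657 for G. For members with at least 10 reads in every library they were -0.348 for A, -0.0243 for C and -0.162 for G. Within the libraries of high substitution rate they were -0.272 for A, -0.00751 for C, -0.0566 for G, -0.857 for T and -1.02 for any base, and within those of low rate -0.0385 for G and -1.15 for T. The mean over parents gave -0.0372 for T, the denominator with added reads -0.152 for T, and bases that are not encoded -1.36 for any base. Of the alternatives chosen after seeing the data, the parents with at least 100 reads in every library gave -0.00804 for C and -0.0443 for G, and the parents without substitution variants -0.0992 for A, -0.00628 for C and -0.000801 for G. Leaving out each library in turn gave 0.832 to 2.85 for A, -0.00273 to 0.0130 for C, -0.0570 to 0.0897 for G, -0.680 to 1.74 for T and 2.61 to 12.4 for any base. The cause of these reversals was not tested. With 3 libraries against 3 the exact test cannot pass 0.05.

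The number of members with a changed ratio, 0 in edgeR's fit, was 7 of 161 without a filter on low counts, with 5 higher, beside 26 of all 1195 pairs, and 4 of 117 without normal 2, beside 11 of all 500 pairs, so that leaving out each library gave 0 to 4. The number with a changed level was 0 under all its alternatives. Replicate numbers 1 to 3 occur in both groups. Deviations of the log2 ratio in same-numbered libraries had r of 0.069, 0.189 and -0.097 over 483 pairs, so the numbers were not taken as pairs. With a replicate block, 0 members had a changed ratio or level, and 0 of all 483 pairs had a changed ratio. For the ratio, 10 of 113 members had an unadjusted p under 0.05 in edgeR's fit with the block, beside 6 of 113 without it. The share over all pairs at this threshold was not counted for the block. The base differences were unchanged by the block, at 1.52 for A, with p of at least 0.5 by exact permutation within pairs. The ratio was not tested for 87 of the 200 members, 28 of them because the parent had under 100 reads in a library and 59, of which 29 with C and 16 with G, because their own reads were few.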
